A study of Mus musculus with 46 samples.

Results

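Gata6 and Gata4 were followed in every library of the series, as the rows with those symbols in all 7 count tables. They are 2 of the 21793 genes that all the tables hold, and they were chosen by name. The 46 libraries come from mouse EPSCs, a pluripotent stem cell state from which embryonic and extraembryonic derivatives can be made, and from cells derived from them. The stated subject was the transcriptome of these cells in different states and the stability of their RNA. RNA was measured by sequencing, with 6854433 to 22280769 counts per library.

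GATA6 and GATA4 are zinc finger transcription factors that bind GATA motifs in DNA. In the blastocyst, Gata6 is first present throughout the inner cell mass together with Nanog and then becomes restricted to the primitive endoderm (PrE), the precursor of the yolk sac endoderm, under FGF signalling. Gata4 follows Gata6 as the PrE forms, and forced expression of either factor turns mouse pluripotent cells towards extraembryonic endoderm. Loss of Gata6 leaves the blastocyst without PrE.

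The 19 groups were as follows. EPSC held 2 libraries. EPS (EPSCs) and PrEdiff (EPSCs kept in a PrE-inducing medium) were each sampled after 0, 1, 2 and 3 h of actinomycin D, which blocks transcription, with 2 libraries at each time. The columns of the latter state are named PrE2 and were matched to the PrEdiff labels by their time and replicate. PrEdiff cultures made up the 3 perturbation tables, with 2 libraries in each group: WT and Virma_cKO, WT and Mettl3_cKO, and siNC and siIgf2bp3. A further table held CD140+ cells (PrE-E) and CD140- cells (EPI-E) from PrE-induced EPSCs, 2 libraries each. The last held the VE and EPI parts of embryoids made from EPSCs with GBL-1 cells, at 5 days, 6 libraries each. The driver of the conditional knockouts, the number of clones and the nature of GBL-1 cells are not given in the sources used here. The labels do not say whether replicates came from separate cultures. The p-values then measure only the spread between these libraries, which may be technical. In the actinomycin D table, replicates differed by little more than counting error (chi-square per degree of freedom 1.19 to 1.30).

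Levels are CPM, counts scaled to the library total, with TMM scaling of the totals within a table. Changes are log2 values from edgeR's quasi-likelihood test over all genes of a table, with Benjamini-Hochberg adjustment. The SE after ± is the size of the change divided by the square root of the test's F value. "Rose" and "fell" are used only where the adjusted p was under 0.05. In bulk RNA, fewer cells of a type and less RNA per cell cannot be told apart.

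The 2 mRNAs differ little in length and more in the number of GGACT words, a common form of the motif at which N6-methyladenosine (m6A) is written. The longest protein-coding Gata6 transcript in GENCODE M21 has 3234 bases and holds GGACT 2 times on its own strand (0.618 per kb). That of Gata4 has 3400 bases and holds it 9 times (2.65 per kb). Among the longest transcripts of genes within 10% of these lengths, the gene itself included, 96.2% and 97.0% hold the word. The median number is 3 for both lengths. As many or more were found in 82.9% of 2444 transcripts like Gata6 in length and in 2.30% of 2430 like Gata4. A word in a transcript is a description and not a mapped m6A site. Gata6os, a long noncoding RNA gene on the opposite strand, overlaps Gata6 by 58 bases in the RefSeq annotation of GRCm38. The strand setting of the counting is not given in the sources used here, so reads from that overlap cannot be assigned.

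Both genes were several times more abundant in unperturbed PrE-induced cultures, CD140+ cells and embryoid VE than in EPS, EPSC, CD140- cells and embryoid EPI. In EPSC, Gata6 stood at 6.82 and 6.85 CPM (68 and 47 counts) and Gata4 at 7.12 and 6.71 CPM (71 and 46 counts). Group means of Gata6 ran, from the highest, through the Mettl3 table's WT (239.9 CPM), siNC (196), Mettl3_cKO (176), PrE-E (152), PrEdiff at 0 h (122), siIgf2bp3 (100.4), the Virma table's WT (87.5) and PrEdiff at 1, 2 and 3 h (87.2, 57.6 and 40.9), with embryoid VE (46.3) between the last 2. The low end held EPSC (6.83), Virma_cKO (4.70), EPS at 0 and 1 h (4.40 and 3.54), embryoid EPI (2.55), EPS at 2 h (1.94), EPI-E (1.07) and EPS at 3 h (0.716). Neighbours that did not differ by more than the sum of their SDs were siNC and Mettl3_cKO, Mettl3_cKO and PrE-E, the Virma WT and PrEdiff at 1 h, embryoid VE and PrEdiff at 3 h, Virma_cKO and EPS at 0 h, and each neighbouring pair from EPS at 1 h down. The 4 unperturbed PrE-induced groups alone thus spanned 87.5 to 239.9 CPM of Gata6 and 107 to 286 CPM of Gata4. Tables and groups coincide, so a difference between tables cannot be told apart from one between cultures.

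Gata4 means ran in nearly the same order. Among the Mettl3 WT (286 CPM), PrE-E (280), siNC (240) and Mettl3_cKO (210), neighbours did not differ by more than the sum of their SDs. Mettl3_cKO, PrEdiff at 0 h (146) and 1 h (115) were each set apart from the group below them. The Virma WT (107), siIgf2bp3 (105) and embryoid VE (101) did not differ by more than the sum of the SDs. PrEdiff at 2 and 3 h followed at 80.7 and 52.3 CPM. The low groups were Virma_cKO (8.06), EPSC (6.91), embryoid EPI (4.52), EPS at 1 h (4.32), 2 h (3.44), 0 h (3.07) and 3 h (2.07), and EPI-E (0.464). Of these, EPSC and embryoid EPI, embryoid EPI and EPS at 1 h, and EPS at 2 and 0 h did not differ by more than the sum of their SDs. Across tables the level depends on the scaling: Gata4 in PrEdiff at 0 h was 184 CPM by library totals against 146 with TMM. In the Mettl3 WT it was 230 CPM with TMM factors over all tables against 286 within its table. The order of groups and the statements on neighbours, for both genes, refer to scaling within tables. With TMM over all tables Gata4 was highest in PrE-E (317 CPM), and siIgf2bp3 (79.5) lay below the Virma WT (108) and embryoid VE (117). Gata6 in PrE-E (172 CPM) then lay above siNC (148).

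**Figure D1:**
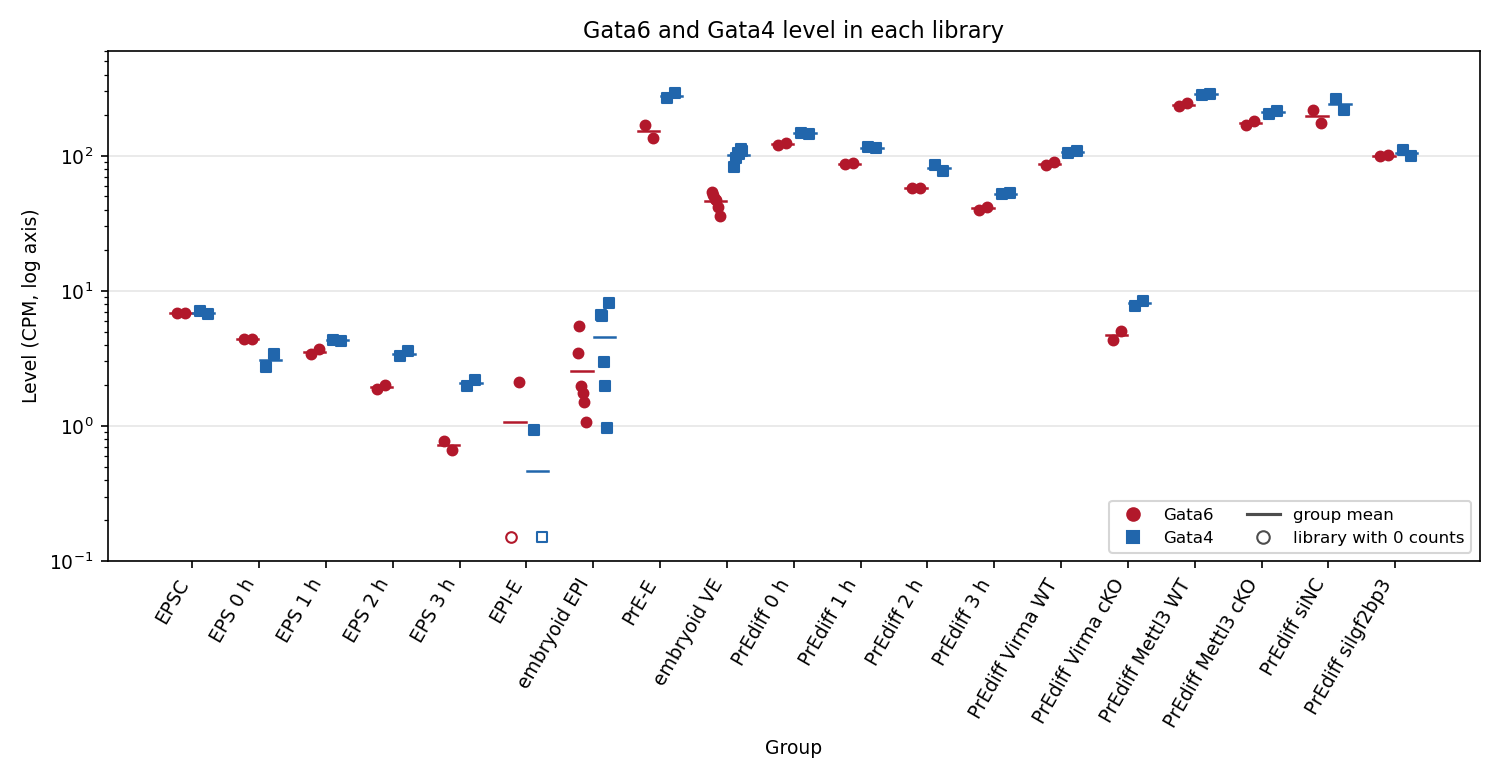
CPM (log axis) of Gata6 (red circles) and Gata4 (blue squares) in each of the 46 libraries by group, with lines for group means and open symbols for libraries with 0 counts. Gata6 group means run from 0.716 CPM in EPS at 3 h to 239.9 CPM in the Mettl3 table's WT, and both genes are low in EPS, EPSC, EPI-E, embryoid EPI and Virma_cKO.

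The labelled cell types were checked against endoderm effector genes, 12 genes of matrix and uptake that PrE and its derivatives express (Pdgfra, Dab2, Amn, Lrp2, Cubn, Sparc, Nid2, laminin and type IV collagen chains). They took 6.25% of the counts in both PrE-E libraries and 0.0893% to 0.0899% in EPI-E, and 1.62% to 1.76% in embryoid VE against 0.0798% to 0.101% in embryoid EPI. In EPS at 0 h they took 0.0963% to 0.0972% and in PrEdiff at 0 h 0.816% to 0.817%.

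PrE induction of EPSCs came with higher Gata6 and Gata4 at the start of the actinomycin D series. Gata6 was at 4.36 and 4.44 CPM in EPS at 0 h and at 119 and 125 CPM in PrEdiff at 0 h. Gata4 was at 2.75 and 3.38 CPM in EPS and at 148 and 145 CPM in PrEdiff. No library of one state came near those of the other. Gata6 rose 27.8-fold (4.80 ± 0.07, adjusted p = 1.02e-204 in edgeR's quasi-likelihood test) and Gata4 47.5-fold (5.57 ± 0.07, adjusted p = 9.50e-221). In that comparison 37.6% of 14127 genes rose and 42.9% fell, and 0.842% of genes had a larger positive estimate than Gata6 and 0.517% a larger one than Gata4. With library totals as the scale the calls split into 6548 rises and 4793 falls, against 5310 and 6066, and the median of all genes moved from -0.05 to 0.13.

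Other PrE transcription factors were measured alongside. Of 7 tested, 5 rose and 2 fell, with a median of 4.04 against -0.05 over all genes. Sox7 (5.70 ± 0.09) and Sox17 (4.55 ± 0.12), SOX factors of endoderm, rose by amounts close to those of the GATA genes. Eomes (-0.33 ± 0.09) and Hhex (-0.52 ± 0.10) fell, and with library totals 1 of the 7 fell. Of the 12 effector genes 11 rose (median 3.62) and Nid2, which encodes nidogen-2, fell (-0.43 ± 0.03). All 11 epiblast and naive pluripotency genes fell (median -2.14), among them Nanog (-2.75 ± 0.03) and Sox2 (-2.98 ± 0.04). Markers of other cell types were also called, in a comparison where 37.6% of all genes rose and 42.9% fell. Calls among them are therefore no trait of these lists. Of 6 trophoblast markers tested 4 rose and 0 fell (median 2.32), and the list took 0.000634% to 0.000667% of counts in EPS and 0.00444% to 0.00446% in PrEdiff, with 1 to 3 of 9 at 0. Of 6 mesoderm markers 4 rose and 1 fell, while their summed share went from 0.00382% to 0.00389% in EPS to 0.000764% to 0.000812% in PrEdiff. Of 12 fibroblast markers 3 rose and 7 fell (median -0.53), with shares of 0.0249% to 0.0252% and 0.0167% to 0.0174%. Their part in the comparison was not tested.

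The other GATA factors stayed far below Gata6 and Gata4 in the groups where those 2 were abundant. In no group did Gata1, Gata2, Gata3 or Gata5 average more than 4.30 CPM, the level of Gata2 in Mettl3_cKO. In the low groups Gata6 and Gata4 were themselves of that order, such as 4.40 and 3.07 CPM in EPS at 0 h. Between EPS and PrEdiff at 0 h, Gata1 (1.64 ± 0.66), Gata2 (2.85 ± 0.27), Gata5 and Zfpm1 (2.14 ± 0.15) rose, and Zfpm2 fell (-1.06 ± 0.44), of 6 tested (median 1.89). The fall of Zfpm2 was lost with DESeq2, with library totals and without EPS 0 h replicate 1 or PrEdiff 0 h replicate 2. With a filter of 1 CPM 2 genes of the list rose and 0 fell (median 2.51). Zfpm1 and Zfpm2 encode FOG1 and FOG2, cofactors that bind the amino-terminal zinc finger of GATA proteins. Gata5 had 0 counts in both EPS libraries at 0 h and 12 in each PrEdiff library. Its rise therefore rests on PrEdiff counts just above the filter's minimum of 10, and its size was not measured. Zfpm1 was the FOG gene with more RNA in these libraries, with means of 2.24 CPM in EPS and 9.91 CPM in PrEdiff at 0 h.

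CD140 is read here as PDGF receptor alpha (CD140a), a surface receptor of PrE cells, although the name CD140 alone gives no subtype. The CD140+ fraction carried far more Gata6 and Gata4 RNA than the CD140- fraction. Gata6 stood at 169 and 135 CPM in the PrE-E libraries (2187 and 2096 counts) and at 0 and 2.13 CPM in EPI-E (0 and 28 counts). Gata4 stood at 268 and 291 CPM in PrE-E (3471 and 4524 counts) and at 0.928 and 0 CPM in EPI-E (14 and 0 counts). Each EPI-E library thus lacked counts for 1 of the genes and had some for the other. A count of 0 allows up to 0.199 CPM of Gata6 in the first library and 0.228 CPM of Gata4 in the second, for counting error only.

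Both genes rose in PrE-E, Gata6 by 7.23 ± 0.54 (adjusted p = 4.91e-06) and Gata4 by 9.12 ± 0.31 (adjusted p = 3.32e-10, edgeR's quasi-likelihood test). In the same comparison 28.3% of 12423 genes rose and 29.5% fell (4440 and 2771 genes with ribosomal protein scaling, against 3510 and 3662), and that scaling moved the median of all genes from -0.03 to 0.23. The call of Gata6 was lost without PrE-E replicate 1 (7.07) and without PrE-E replicate 2 (7.36). It was also lost with the replicate number as a block (7.24, adjusted p = 0.0795 in edgeR's quasi-likelihood test). The call of Gata4 was kept in each of these fits. Without single libraries the estimate of Gata6 ran from 6.15 to 14.1 and that of Gata4 from 8.22 to 14.9. The upper values came without EPI-E replicate 2 for Gata6 and without EPI-E replicate 1 for Gata4, where the other EPI-E library has 0 counts and the fitted value is no measure of size. All 7 PrE transcription factors tested rose (median 7.33), including Sox7 (7.33 ± 0.21), and so did all 12 effector genes (median 7.80). Of these, Pdgfra is the gene of the sorted antigen on that reading of CD140. Fibroblast markers moved the same way, with 4 of 10 rising and 0 falling (median 0.91) and a share of counts of 0.0346% to 0.0364% in PrE-E against 0.0179% to 0.0186% in EPI-E. Their part in the comparison was not tested. Zfpm1 was the GATA or FOG gene that passed the low-count filter, and it rose (3.84 ± 0.21), from a mean of 5.05 CPM in EPI-E to 72.9 CPM in PrE-E. Epiblast genes went the other way, with 9 of 11 falling (median -6.51), such as Sox2 (-6.51 ± 0.19), while Klf4 (0.52 ± 0.20) and Zfp42 (0.34 ± 0.11) rose. Neither of these was called with library totals or without PrE-E replicate 2 or EPI-E replicate 2.

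In embryoids the VE part, the visceral endoderm layer that PrE gives rise to, carried both mRNAs. Gata6 ranged from 35.7 through a median of 47.5 to 53.9 CPM in the 6 VE libraries and from 1.07 through 1.86 to 5.51 CPM in the 6 EPI libraries. Gata4 ranged from 83.2 through 104 to 112 CPM in VE and from 0.970 through 4.75 to 8.10 CPM in EPI. The ranges did not overlap for either gene. Gata6 rose 18.05-fold (4.17 ± 0.30, adjusted p = 6.02e-11) and Gata4 22.4-fold (4.49 ± 0.30, adjusted p = 7.23e-11, edgeR's quasi-likelihood test), in a comparison where 34.5% of 11254 genes rose and 38.0% fell. With ribosomal protein scaling 4980 genes rose and 3220 fell, against 3882 and 4272, and the median of all genes moved from -0.05 to 0.27.

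The 8 PrE transcription factors all rose in VE (median 4.17 against -0.05 over all genes). Among them were Hnf4a, a nuclear receptor of visceral endoderm (7.27 ± 0.39), Sox17 (3.61 ± 0.18) and Sox7 (4.23 ± 0.27). All 12 effector genes rose (median 4.08), for example Cubn (5.33 ± 0.08), which encodes the uptake receptor cubilin. Zfpm1 rose as well (4.87 ± 0.76), from a mean of 0.279 CPM in EPI to 8.48 CPM in VE. Of 10 epiblast genes 8 fell (median -6.32) and Klf4 rose (2.07 ± 0.43). Fibroblast markers took at most 0.00291% of counts in any embryoid library, and 5 to 11 of the 12 were at 0.

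**Figure D2:**
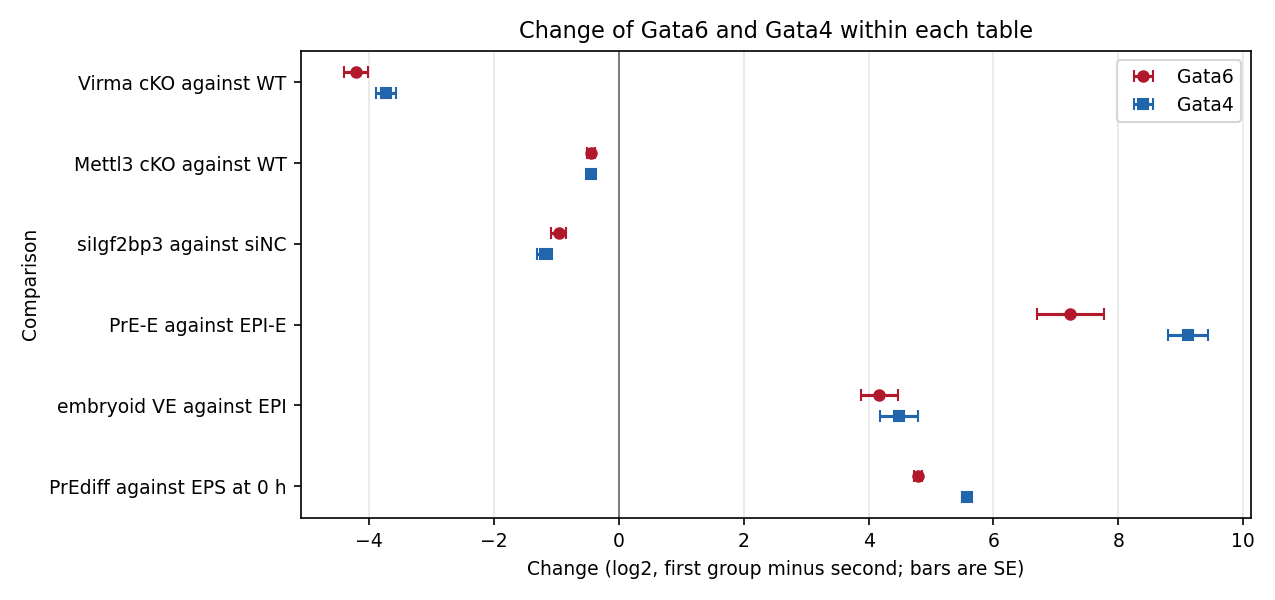
Log2 change (first group minus second, bars are SE) of Gata6 (red circles) and Gata4 (blue squares) in the 6 comparisons made within a table. Both lie below 0 in the 3 perturbation tables, furthest with Virma_cKO (-4.22 and -3.72), and above 0 in the 3 lineage comparisons, furthest in PrE-E (7.23 and 9.12).

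Virma encodes a scaffold subunit of the complex that writes m6A on mRNA, and its own transcript checks the labels of its table. Virma was at 106.7 and 109.8 CPM in the WT libraries and at 67.7 and 54.6 CPM in Virma_cKO (-0.82 ± 0.12, adjusted p = 1.12e-06, edgeR's quasi-likelihood test). A good part of the transcript thus remained in the libraries labelled Virma_cKO. The column names of this table carry the word "input", and nothing else says how these libraries differ in kind.

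Gata6 and Gata4 were low in Virma_cKO cultures after PrE induction. Gata6 stood at 85.5 and 89.6 CPM in the WT libraries (853 and 1028 counts) and at 4.35 and 5.05 CPM in Virma_cKO (52 and 60 counts). Gata4 stood at 105 and 108 CPM in the WT and at 7.70 and 8.42 CPM in Virma_cKO (92 and 100 counts). The groups lay far apart, and the Virma_cKO levels were near those of EPSC (6.83 and 6.91 CPM), which were measured in another table. Gata6 fell 18.6-fold and Gata4 13.2-fold, with adjusted p = 8.06e-19 and 3.17e-19. Among 13113 genes 15.1% rose and 18% fell, and 0.267% had a lower estimate than Gata6 and 0.358% a lower one than Gata4. The balance of calls depends on the scale: 3001 genes rose and 1491 fell with library totals, and 4933 and 721 with ribosomal protein scaling, against 1984 and 2364, while the median of all genes moved from 0.02 to 0.20 and 0.43. Gata6 was at -4.04 and -3.80 and Gata4 at -3.55 and -3.31 on those 2 scales, and both were called.

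Of 7 PrE transcription factors tested, 6 fell in Virma_cKO (median -2.84 against 0.02 over all genes). Sox7 (-4.42 ± 0.21) fell by as much as Gata6, and Eomes (-1.59 ± 0.22) and Hhex (-1.52 ± 0.21) by less. Of the 12 effector genes 11 fell (median -2.46), such as Cubn (-4.75 ± 0.08) and Lama1, a laminin chain of basement membrane (-4.31 ± 0.07), while Nid2 was at -0.01 ± 0.11 (0.17 with library totals and 0.40 with ribosomal protein scaling). Zfpm1 was at 27.9 CPM in the WT and 28.2 CPM in Virma_cKO (0.01 ± 0.19, adjusted p = 0.971). Zfpm2 was the 1 gene of 4 tested GATA and FOG genes to rise (1.27 ± 0.49, adjusted p = 0.0452), a call lost with DESeq2 and without Virma WT replicate 2 or Virma_cKO replicate 1. Of 11 epiblast genes 6 fell (median -0.72), led by Tdgf1 (-1.86 ± 0.11) and Klf4 (-1.19 ± 0.09), and 0 rose. With library totals 1 rose, as it did without Virma WT replicate 2 or Virma_cKO replicate 2, and with ribosomal protein scaling 3 rose.

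FGF signalling genes, of the pathway that sets Gata6 against Nanog in the embryo, were split in Virma_cKO. Of 13 tested, 6 fell, including the receptor gene Fgfr2 (-1.55 ± 0.18) and the feedback inhibitor gene Spry4 (-1.29 ± 0.14), and Fgfr1, Frs2, Dusp6 and Etv4 rose. Without Virma_cKO replicate 2 a single gene rose and 3 fell, without Virma WT replicate 1 also 3 fell, and the median went from -0.38 to 0.03 with ribosomal protein scaling. Of 6 trophoblast and 4 mesoderm markers tested, Gcm1 and Myh6 rose and 0 fell. Markers of the fibroblasts often used as feeder cells moved with the genotype: 11 of 12 rose (median 1.28), for example Col3a1 (1.41 ± 0.07), and their summed share of counts was 0.0889% to 0.0896% in the WT and 0.244% to 0.253% in Virma_cKO, with none at 0. Their part in the results of the table was not tested.

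The table labelled Mettl3 concerns the catalytic subunit of the same complex. Mettl3 RNA did not check the labels: it was at 37.4 and 35.2 CPM in the WT libraries and at 34.9 and 37.1 CPM in those labelled Mettl3_cKO (-0.02 ± 0.11, adjusted p = 0.978, edgeR's quasi-likelihood test). Directions below therefore refer to the libraries labelled Mettl3_cKO. Gata6 was at 233 and 246 CPM in the WT and at 170 and 181 CPM in the libraries labelled Mettl3_cKO. Gata4 was at 284 and 289 CPM in the WT and at 205 and 215 CPM in the latter. The groups did not overlap. Gata6 fell 1.37-fold (-0.45 ± 0.07, adjusted p = 7.30e-05) and Gata4 by the same amount (-0.45 ± 0.06, adjusted p = 3.66e-05), where 2.51% of 13115 genes rose and 1.44% fell. With ribosomal protein scaling the split of calls was 141 to 156, against 329 to 189, and both genes were at -0.50.

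Of the 7 PrE transcription factors tested in that table, 4 fell (median -0.47 against 0.00 over all genes), such as Sox7 (-0.47 ± 0.07), Hnf4a (-0.98 ± 0.26) and Hhex (-0.53 ± 0.14). The count was 2 with DESeq2, with ribosomal protein scaling and without Mettl3 WT replicate 2 or Mettl3_cKO replicate 1. Among 12 effector genes 11 fell (median -0.40), with Lrp2, the megalin gene, at -0.72 ± 0.05. Of the 4 GATA and FOG genes 0 were called by edgeR or DESeq2, although 3 had an unadjusted p under 0.05 in edgeR, and Zfpm1 was at -0.35 ± 0.11 (adjusted p = 0.0992). Of 11 epiblast genes 0 were called by either tool (median -0.01), with 1 at an unadjusted p under 0.05. In edgeR 0 of 6 trophoblast and 0 of 4 mesoderm markers were called, with 1 of each at an unadjusted p under 0.05. Of 13 FGF signalling genes the receptor genes Fgfr2 and Fgfr4 fell and 0 rose, but 0 fell with DESeq2. The falls were also lost without Mettl3 WT replicate 1 or Mettl3_cKO replicate 1. With no low-count filter, with a filter of 1 CPM and with library totals 1 rose. Fibroblast markers rose in 10 of 12 cases (median 0.51), such as Col3a1 (0.54 ± 0.05), and took 0.228% to 0.242% of counts in the WT and 0.332% to 0.348% in the libraries labelled Mettl3_cKO, with none at 0. Their part in the change of the GATA genes was not tested.

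Igf2bp3 encodes an RNA-binding protein described as a reader of m6A. Its RNA was not lower in the libraries labelled siIgf2bp3, at 117 and 111 CPM against 98.4 and 113 CPM in siNC (0.11 ± 0.11, adjusted p = 0.577, edgeR's quasi-likelihood test). Gata6 was at 217 and 175 CPM in siNC and at 99.4 and 101 CPM in the libraries labelled siIgf2bp3. Gata4 was at 263 and 218 CPM in siNC and at 111 and 99.98 CPM in the others. The 2 siNC libraries differed from each other more than the siIgf2bp3 pair did, and both lay above it. Gata6 fell 1.95-fold (-0.96 ± 0.12, adjusted p = 0.00147) and Gata4 2.28-fold (-1.19 ± 0.12, adjusted p = 4.17e-04), where 2.79% of 12918 genes rose and 4.52% fell. These shares rest on single libraries: without siIgf2bp3 replicate 1 only 33 genes rose and 209 fell, and without siNC replicate 2 the counts were 2388 and 2548, against 361 and 584. Gata6 stayed between -1.11 and -0.82 and Gata4 between -1.32 and -1.07 when each library was left out, and every such fit called both.

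There 4 of 7 PrE transcription factors fell (median -0.99 against 0.01 over all genes), such as Sox7 (-1.21 ± 0.11), Sox17 (-1.29 ± 0.20) and Foxa2 (-1.33 ± 0.27). Of 12 effector genes 11 fell (median -1.13), such as Col4a1 (-1.59 ± 0.11), and Nid2 was at -0.14 ± 0.10. Of 3 GATA and FOG genes 0 were called by edgeR or DESeq2 and 0 had an unadjusted p under 0.05 in edgeR, with Zfpm1 at -0.49 ± 0.23 (adjusted p = 0.209). Nanog, Esrrb, Tfcp2l1, Zfp42 and Tdgf1 were the 5 of 11 epiblast genes that rose (median 0.36), but 0 rose without either siIgf2bp3 library, and 4 fell without siNC replicate 2. Of the trophoblast and mesoderm markers, 0 of 5 and 0 of 4 were called in edgeR, with 0 and 2 at an unadjusted p under 0.05. Among 13 FGF signalling genes 2 rose and 2 fell, such as Spry4 (0.76 ± 0.10) and Fgfr4 (-0.90 ± 0.14). Without either siNC library 4 rose, and without either siIgf2bp3 library 1 rose and 1 fell. Fibroblast markers took 0.0594% to 0.0740% of counts in siNC and 0.0676% to 0.0690% in the libraries labelled siIgf2bp3. Of the 12 markers Lum and Dcn rose. With DESeq2 or without either siIgf2bp3 library 1 rose, and without siNC replicate 2 there were 4 rises and 2 falls.

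The 3 responses were then set against each other in a joint fit of the 12 libraries, as differences of differences, with the limit that table and perturbation coincide. Gata6 was lower with Virma_cKO than with the Mettl3_cKO label (-3.87 ± 0.17, adjusted p = 7.26e-13, edgeR's quasi-likelihood test), and so was Gata4 (-3.38 ± 0.15, adjusted p = 7.78e-13), a difference that 15.5% of 14231 genes showed in that direction. Against the siIgf2bp3 label the Virma_cKO response was more negative by -3.37 ± 0.18 for Gata6 (adjusted p = 1.50e-11) and by -2.65 ± 0.16 for Gata4 (adjusted p = 8.97e-11), with 20.6% of genes called in that direction. Ribosomal protein scaling left -3.30 and -2.82 for the first pair and -2.83 and -2.12 for the second. It also turned the split of calls to 4286 higher and 430 lower against Mettl3, and to 4132 higher and 681 lower against siIgf2bp3, from 875 and 2212 and from 1433 and 2926. Library totals gave 1896 and 951, and 2540 and 1529.

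The Mettl3 and siIgf2bp3 labels were compared in the same way, and both genes had positive estimates. Gata4 fell less under the Mettl3_cKO label than under the siIgf2bp3 label (0.73 ± 0.13, adjusted p = 0.00606), and 0.661% of genes were called in that direction. The call was lost without Mettl3_cKO replicate 2 (0.69, adjusted p = 0.0564) or siIgf2bp3 replicate 2 (0.66, adjusted p = 0.0687). Gata6 was at 0.50 ± 0.14 (adjusted p = 0.0841) and passed the threshold with DESeq2 (0.51, adjusted p = 0.0302), with no low-count filter (0.50, adjusted p = 0.0377) and without siNC replicate 2 (0.63, adjusted p = 0.00280).

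Under actinomycin D the decline of an mRNA reflects its loss once transcription is blocked. Since totals were equalised between libraries, a slope is relative to the average transcript. In EPS, Gata6 stood at 4.36 and 4.44 CPM at 0 h, 3.39 and 3.68 at 1 h, 1.87 and 2.00 at 2 h, and 0.774 and 0.659 at 3 h. Gata4 in the same libraries stood at 2.75 and 3.38 CPM at 0 h, 4.35 and 4.29 at 1 h, 3.31 and 3.56 at 2 h, and 1.96 and 2.18 at 3 h. The Gata6 pairs of neighbouring times did not overlap and each was lower than the one before, while Gata4 was highest at 1 h. The counts behind these levels were low, 97 to 13 for Gata6 and 82 to 38 for Gata4.

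In PrEdiff, where both mRNAs were abundant, they declined side by side. Gata6 stood at 119 and 125 CPM at 0 h, 86.3 and 88.2 at 1 h, 57.6 and 57.7 at 2 h, and 39.8 and 42.1 at 3 h. Gata4 stood at 148 and 145 CPM at 0 h, 116 and 115 at 1 h, 84.9 and 76.6 at 2 h, and 51.8 and 52.9 at 3 h. For both genes every library of a later time was lower than every library of an earlier one.

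**Figure D3:**
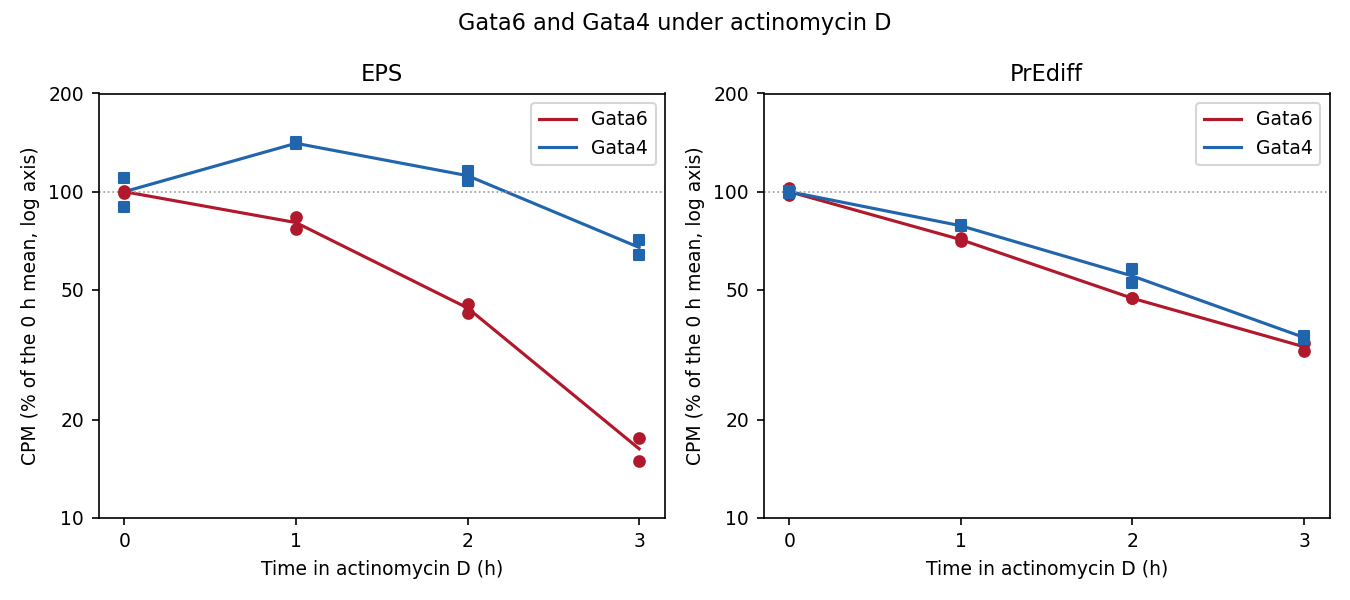
CPM as a percentage of the mean at 0 h (log axis) against hours in actinomycin D for EPS (left) and PrEdiff (right), with Gata6 as red circles and Gata4 as blue squares, points for libraries and lines through means. In EPS, Gata4 lies above 100% at 1 h and Gata6 falls to 16.4% at 3 h in the fit, while in PrEdiff both fall to between 33.4% and 35.7%. The percentages hold for TMM scaling within the table and differ on other scales.

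A slope per hour was fitted for each state over all 16 libraries. Gata6 fell by 0.80 ± 0.07 log2 units per hour in EPS (adjusted p = 7.79e-07, edgeR's quasi-likelihood test) and by 0.53 ± 0.05 in PrEdiff (adjusted p = 4.40e-06). Only 1.92% and 4.03% of genes had a steeper slope in the respective state. Gata4 fell by 0.50 ± 0.07 per hour in PrEdiff (adjusted p = 6.58e-05; 4.78% of genes were steeper) and was at -0.19 ± 0.09 in EPS (adjusted p = 0.0939; 20.5% were steeper). Of 14127 genes, 18.2% rose and 18.5% fell relative to the average transcript in EPS, and 20.3% and 16.6% in PrEdiff. With library totals 476 rose and 3910 fell in EPS and 533 and 4805 in PrEdiff, against 2570 and 2610 and 2867 and 2343. With ribosomal protein scaling 21 rose and 4302 fell in EPS and 2 and 9154 in PrEdiff. The median slope of all genes moved from 0.06 to -0.05 and -0.17 in EPS and from 0.02 to -0.12 and -0.35 in PrEdiff on those scales, and Gata6 moved from -0.80 to -0.93 and -1.12 in EPS. In PrEdiff the slope of Gata6 was -0.68 with library totals and -0.91 with ribosomal protein scaling, and that of Gata4 -0.64 and -0.87.

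The EPS slope of Gata4 depends on the scale and on the 3 h libraries. It was called with library totals (-0.31, adjusted p = 0.00325), with ribosomal protein scaling (-0.44, adjusted p = 4.86e-05) and with DESeq2 (-0.19, adjusted p = 0.0467). Without the 3 h libraries it turned to 0.13 (adjusted p = 0.247). A straight line describes these 4 times poorly, so each time was also compared with 0 h, a test added after the data had been seen.

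In EPS, Gata4 rose to 140% of its 0 h level at 1 h (0.49 ± 0.17, adjusted p = 0.00760), where 32.4% of genes rose. It was at 112% at 2 h (0.16 ± 0.19, adjusted p = 0.453) and fell to 67.4% at 3 h (-0.57 ± 0.20, adjusted p = 0.00827), where 27.9% of genes fell. These percentages hold for TMM scaling only. By library totals the Gata4 means in EPS were 3.40, 4.06, 2.94 and 1.83 CPM at 0, 1, 2 and 3 h. On that scale the level at 2 h lay below that at 0 h, and the single times were not tested. Gata6 in EPS was at 80.4% at 1 h (-0.32 ± 0.16, adjusted p = 0.0806) and fell to 44.1% at 2 h (adjusted p = 1.66e-08), where 37.3% of genes fell, and to 16.4% at 3 h (adjusted p = 3.04e-23). In PrEdiff, Gata6 fell to 71.3%, 47.1% and 33.4% at 1, 2 and 3 h, and Gata4 to 78.6%, 55.0% and 35.7%. Genes that fell made up 22.5%, 29.9% and 30.1% of all at those times. By library totals the PrEdiff means went from 154 CPM at 0 h to 38.3 CPM at 3 h for Gata6. For Gata4 they went from 184 to 49.0 CPM. All p-values here are from edgeR's quasi-likelihood test with adjustment over all genes.

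The difference of slopes between the states was tested as an interaction. For Gata6 it was 0.27 ± 0.09 per hour (PrEdiff minus EPS, 95% interval 0.09 to 0.45, adjusted p = 0.212), and for Gata4 -0.30 ± 0.11 (95% interval -0.52 to -0.09, adjusted p = 0.247). The intervals use a normal approximation and, unlike the p-values, are not adjusted for the number of genes. Neither difference passed the threshold, where 1.13% of genes rose and 0.142% fell. The 2 estimates had opposite signs. With 3 h against 0 h alone, both were called (0.34 for Gata6, adjusted p = 6.44e-04, and -0.31 for Gata4, adjusted p = 1.23e-04), in a setting where 3232 genes rose and 3036 fell, against 160 and 20 with all times. Without the 3 h libraries Gata6 was at -0.07 (adjusted p = 0.684) and Gata4 at -0.60 (adjusted p = 0.00690), so the Gata6 difference rests on the 3 h libraries.

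Other PrE transcription factors declined relative to the average transcript in both states, and the calls of the effector genes varied with the scale and the times. In EPS 6 of 7 PrE transcription factors fell (median slope -0.94 against 0.06 over all genes), for example Hhex (-0.94 ± 0.07), Sox7 (-0.99 ± 0.13) and Eomes (-0.50 ± 0.04). Some of the list were near the floor in EPS. Sox7 averaged 1.70 CPM at 0 h and 0.254 CPM at 3 h, and 1 to 2 of the 8 listed genes had 0 counts at 3 h. In PrEdiff all 7 fell (median -0.66 against 0.02), for example Sox7 (-1.22 ± 0.08), Foxa2 (-1.30 ± 0.12) and Sox17 (-1.09 ± 0.12). Of the 12 effector genes 8 rose relative to the average transcript in EPS (median 0.21), such as Cubn (0.45 ± 0.10, but -0.04 without the 3 h libraries). Only 2 did so with library totals, 0 with ribosomal protein scaling and 2 without the EPS 3 h libraries, where 3 fell. In PrEdiff 2 effector genes rose, Sparc and Nid2, and Pdgfra fell (-0.28 ± 0.06). On the ribosomal protein scale 0 rose and 5 fell, and without the 3 h libraries 8 fell.

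Of the 6 other GATA and FOG genes, Gata2 (-0.98 ± 0.22) and Gata3 (-1.06 ± 0.27) fell in EPS, and Gata2 (-0.35 ± 0.11), Gata3 (-0.50 ± 0.18) and Gata5 (-0.84 ± 0.16) fell in PrEdiff. In PrEdiff 1 fell without PrEdiff 0 h replicate 1, without PrEdiff 3 h replicate 1 and without all 3 h libraries. There 5 fell with ribosomal protein scaling, with 3 h against 0 h and without the EPS 3 h libraries. Zfpm1 was at -0.14 ± 0.06 in EPS (adjusted p = 0.12) and at -0.12 ± 0.05 in PrEdiff (adjusted p = 0.0995). Epiblast genes fell in 7 of 11 cases in both states, while 1 rose in EPS and 2 rose in PrEdiff. Among those that fell were Klf4 (-0.89 ± 0.03 in EPS and -0.59 ± 0.03 in PrEdiff) and Sox2 (-0.91 ± 0.06 and -0.66 ± 0.07).

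**Figure D4:**
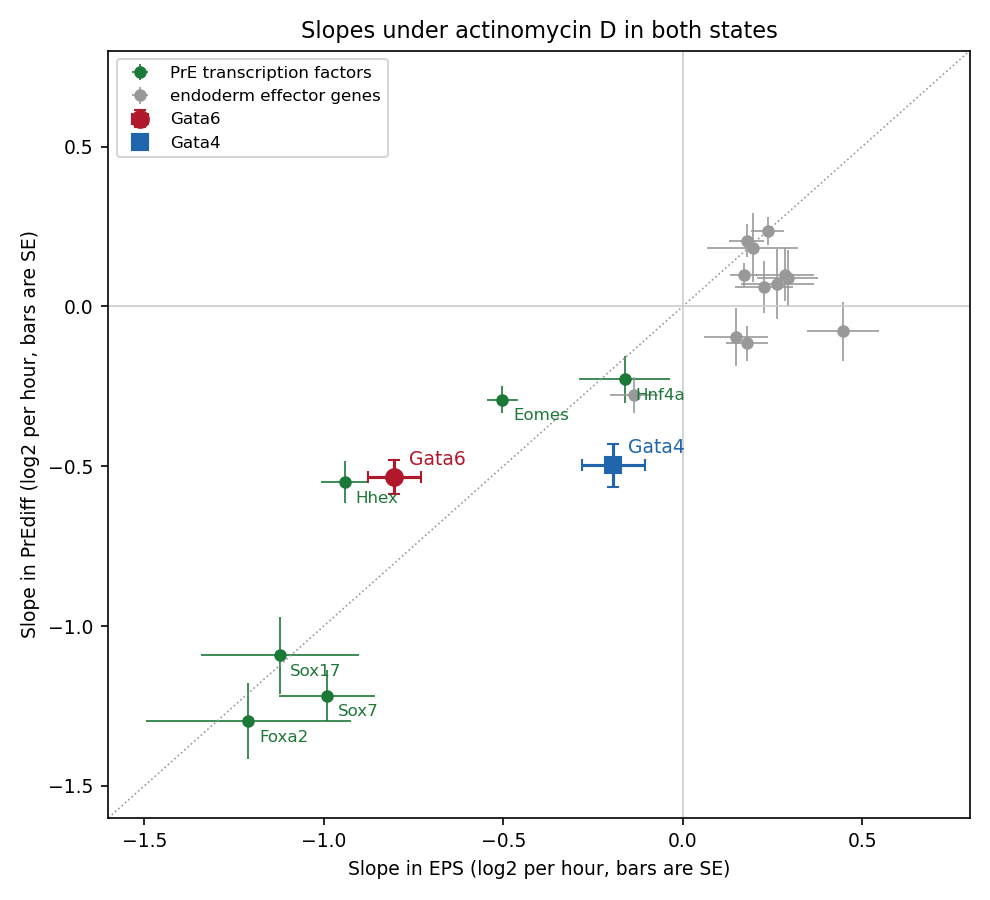
Slope under actinomycin D in PrEdiff against that in EPS (log2 per hour, bars are SE) for Gata6 (red), Gata4 (blue), 6 PrE transcription factors (green) and endoderm effector genes (grey), with a dotted line of equal slopes. Gata6 lies above the line (-0.80 in EPS, -0.53 in PrEdiff) and Gata4 below it (-0.19 and -0.50), and neither difference passed the threshold.

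The ratio of Gata6 to Gata4 counts needs no scaling, since both come from 1 library. It was 0.810 to 0.862 in PrEdiff at 0 h, 0.812 and 0.828 in the Virma WT, 0.821 and 0.853 in the Mettl3 WT, 0.829 and 0.843 in the libraries labelled Mettl3_cKO, and 0.827 and 0.801 in siNC. These 10 libraries of 4 tables thus lay within a narrow band. The ratio was lower in Virma_cKO (0.565 and 0.60) and higher in the libraries labelled siIgf2bp3 (0.895 and 1.01), without overlap with their controls. In EPSC it was 0.958 and 1.02, and in PrE-E 0.630 and 0.463. An exact permutation test of 2 against 2 libraries cannot go below p = 0.333, and no other test of these ratios was run. Per base of the longest transcript, Gata4 exceeded Gata6 by 1.15 to 1.17 times in the Virma WT and by 1.59 to 1.68 times in Virma_cKO.

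In the embryoid table the ratio varied within groups. The mean log2 ratio was -1.13 in VE and -0.69 in EPI, a difference of -0.44 that did not pass (exact permutation test, two-sided, p = 0.420 over 924 arrangements). EPI replicate 6 had 10 Gata6 and 76 Gata4 counts. Without that library the difference was -0.88 (exact permutation p = 0.00866).

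Over time in actinomycin D the ratio fell in EPS, and in PrEdiff its slope did not pass the test. In EPS it was 1.59 and 1.31 at 0 h, 0.780 and 0.859 at 1 h, 0.566 and 0.561 at 2 h, and 0.395 and 0.302 at 3 h, with no overlap between times. In PrEdiff it was 0.810 and 0.862, then 0.746 and 0.769, 0.679 and 0.753, and 0.769 and 0.796. The slope of the log2 ratio was -0.66 per hour in EPS (exact permutation test of the times, two-sided, p = 7.94e-04, the smallest that 2520 arrangements can give) and -0.04 per hour in PrEdiff (p = 0.284 by the same permutation test). The difference of the slopes, EPS minus PrEdiff, was -0.62 per hour. With the state labels permuted within each time it gave p = 0.00154, the smallest of 1296 arrangements in that exact test, which was chosen after the data had been seen. Its null is no difference between the states at any time. The ratio already differed at 0 h, so this p does not test the slopes alone. Without the 3 h libraries the PrEdiff slope was -0.11 per hour and passed the test (exact permutation p = 0.0444), and the difference was -0.56 (exact permutation p = 0.0556). The 3 slopes of the ratio were tested without adjustment for one another.

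**Figure D5:**
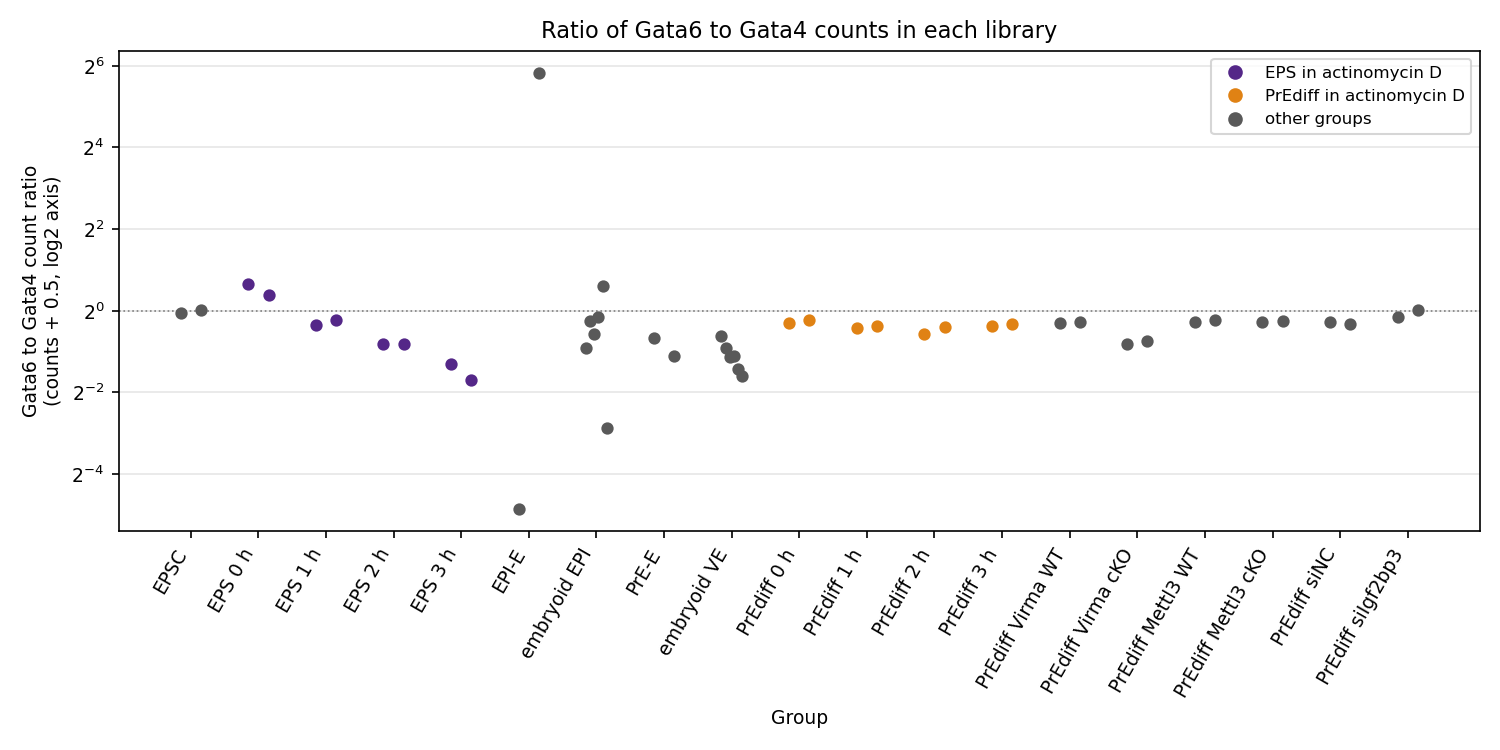
Ratio of Gata6 to Gata4 counts (each plus 0.5, log2 axis) in each library by group, with EPS in purple, PrEdiff of the actinomycin D table in orange and other groups in grey. EPS falls from 1.31 to 1.59 at 0 h to 0.302 to 0.395 at 3 h, and PrEdiff stays between 0.679 and 0.862; the EPI-E points rest on 0, 14 and 28 counts.

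The genes most like each member were sought over 18 group means (log2 CPM). These came from the 6 tables with more than 1 group, each mean centred on its table. The search covered 10084 genes with at least 10 CPM in at least 3 groups. Symbols of predicted loci (Gm with a number, Rik or LOC) were left out. The points share tables, depth and the same lineage contrast, so the coefficients are a description and carry no p. Among the 5 genes most like Gata6 were Fhdc1 (Pearson r = 0.993), Runx1 (0.987), Gata4 (0.986) and Foxq1 (0.986). Among the 5 most like Gata4 were Gdpd5 (0.993), Pth1r (0.991), Rab3il1 (0.990) and Pdgfra (0.989), with Gata6 in rank 7 (0.986). Pdgfra is a member of the effector list above, and Pth1r encodes a receptor for parathyroid hormone and its related peptide. Over all 19 group means without centring, Gata4 was the gene most like Gata6 (0.987) and Gata6 the second most like Gata4, while Rab3il1 came to 0.807.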

How the data were processed

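The authors deposited 7 tables of raw gene counts. The tools named in the submitters' processing notes are STAR 2.7.11b and Subread (their roles are not stated), Trim Galore, DESeq2 and FastQC 0.12.1, with mm39 as the build. The parameters and the strand setting are not given in the sources used here, nor is which library was made with which of the 2 kits that the labels' protocols name. Of 21812 rows per table, 19 symbols repeated in the EPSC table were left out.

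Gata6 and Gata4 and the gene lists were chosen with earlier results of these data known. Whole tables were fitted in R 4.3.3 with edgeR 4.0.16 (TMM, filterByExpr with a minimum count of 10, robust quasi-likelihood test), with Benjamini-Hochberg adjustment over all genes of a fit and a threshold of 0.05. Slopes came from 1 model over the 16 actinomycin D libraries, and differences between responses from 1 over the 12 perturbation libraries. The fits were run on simulated counts with the same dispersion for every gene. That checks the code and not the error rates in these libraries, whose spread differed between tables. DESeq2 1.42.0, other scalings and filters, left-out libraries and a replicate block were alternatives. Comparisons of single times, the count ratio between states and fits without the EPS 3 h libraries were chosen after the data had been seen. The floor was 3 counts.

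Named besides the members were the targeted genes, up to 3 genes of each list per comparison by adjusted p, the 5 genes most like each member, and overlapping genes. Eomes, Hhex, Nid2, Fgfr1, Frs2, Dusp6, Etv4, Klf4, Zfp42, Foxa2, Sparc, Pdgfra and members of counts of 5 or fewer were in part named after their values had been seen. Total counts per library bound the precision of low levels. Values of 1 further gene that the rule names are not reported here.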

Additional observations from a re-analysis of the deposited data

Results flagged for a closer look

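The responses to the perturbations differed between tables by a test of the difference itself in edgeR's quasi-likelihood fit. The Virma_cKO response minus that of the Mettl3_cKO label was -3.87 for Gata6 and -3.38 for Gata4 (log2), and minus that of the siIgf2bp3 label it was -3.37 for Gata6 and -2.65 for Gata4. The response of Gata4 under the Mettl3_cKO label minus that under the siIgf2bp3 label was 0.73. Each perturbation has a table of its own, so the table and the perturbation cannot be told apart.

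The difference between the states in the slope of the log2 ratio of Gata6 to Gata4 counts was -0.62 per hour under actinomycin D (EPS minus PrEdiff, exact permutation p = 0.00154). That test was chosen after the data had been seen. It permutes states whose ratios already differed at 0 h, so its p does not test the slopes alone. Without the 3 h libraries the difference was -0.56 (exact permutation p = 0.0556).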

How the results depend on the processing

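Of 496 values of the 28 results on the members under alternatives, 472 kept direction and side of the threshold, 6 lost the threshold, 15 passed it and 3 reversed. The causes of changes were not tested. Replicate numbers did not pair the libraries: the correlations of same-numbered libraries' deviations ran from -0.0927 to 0.0439. With a replicate block Gata6 in PrE-E against EPI-E was 7.24 (adjusted p = 0.0795), and without single libraries it ran from 6.15 to 14.1. For Gata4 in EPS the slope was -0.19 with DESeq2, -0.31 with library totals, -0.44 with ribosomal protein scaling, -0.19 with 3 h against 0 h, 0.13 without the 3 h libraries, 0.090 without the EPS 3 h libraries and -0.30 to -0.11 without single libraries. The slope difference of Gata4 was -0.31 with DESeq2, -0.60 without 3 h, -0.31 with 3 h against 0 h and -0.58 without the EPS 3 h libraries, and that of Gata6 -0.073 without 3 h and 0.34 with 3 h against 0 h. Mettl3 minus siIgf2bp3 was 0.51 with DESeq2, 0.50 with no filter and 0.34 to 0.63 without single libraries for Gata6, and 0.60 to 0.84 without single libraries for Gata4. The embryoid ratio difference ran from -0.88 to -0.18 without single libraries. Without 3 h the ratio slope was -0.11 in PrEdiff (exact permutation p = 0.0444), and the difference between states was -0.56 (exact permutation p = 0.0556).

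Estimates near 0 changed sign. In Virma_cKO, Nid2 was at 0.17 with library totals and 0.40 with ribosomal protein scaling and ran from -0.047 to 0.018 without single libraries, and Zfpm1 ran from -0.20 to 0.19. With the siIgf2bp3 label Zfpm1 ran from -0.87 to 0.0041 without single libraries. Cubn in EPS was at -0.039 without the 3 h libraries and -0.077 without the EPS 3 h libraries.

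Counts of called genes ranged from 1313 to 4933 rising and 721 to 2388 falling in Virma_cKO, from 141 to 392 and 91 to 274 with the Mettl3_cKO label, and from 33 to 2388 and 209 to 2548 with the siIgf2bp3 label. For slopes they ranged from 21 to 6095 and 2227 to 4577 in EPS, from 2 to 5298 and 1691 to 9154 in PrEdiff, and from 2 to 3232 and 0 to 3036 for their difference. For Virma minus Mettl3 the ranges were 422 to 4286 and 430 to 2565, for Virma minus siIgf2bp3 883 to 4132 and 681 to 3077, and for Mettl3 minus siIgf2bp3 30 to 384 and 7 to 601.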
